A study of Mus musculus with 12 samples.

Results

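The genes described are 10 cytokine receptor genes of myeloid cells: Csf3r, Csf2ra, Csf2rb, Csf2rb2, Il3ra, Il6ra, Il6st, Il4ra, Ifngr1 and Ifnar1. They were taken by gene symbol from a table of 24411 symbols, and all 10 were found and tested. The table came from RNA sequencing of total RNA from mouse leukaemia cells, made from BALB/c bone marrow that carried mutant CSF3R and mutant CEBPA by retroviral transfer. The cells grew in IMDM with fetal bovine serum and were treated for 24 h in 4 ways, with 3 libraries each. The treatments were the combination of 50 nM ruxolitinib and 2 nM GSK-LSD1, GSK-LSD1 alone at 2 nM, ruxolitinib alone at 50 nM, and DMSO, the solvent. All 4 groups carried both mutant genes, so no library came from cells without them. Ruxolitinib inhibits the kinases JAK1 and JAK2, and GSK-LSD1 inhibits the histone demethylase LSD1, encoded by Kdm1a. The labels do not say whether the 3 libraries of a treatment came from separate cultures, so p-values measure the spread between these libraries, which may be technical.

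Cytokine receptors of this kind have no kinase of their own and signal through JAK kinases bound to their tails, which then phosphorylate STAT transcription factors. Many are built from a chain that gives ligand specificity and a chain that is shared by several ligands. Csf3r encodes the receptor for granulocyte colony-stimulating factor, which drives neutrophil production, and activating mutations of it occur in neutrophil leukaemias. Its symbol cannot separate the cells' own transcript from the introduced one, so the Csf3r values could include reads from the retroviral copy.

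Values are normalised read counts: reads per gene divided by the authors' factor for each library, which leaves differences in gene length in place. Library totals were alike, at 8260995 to 8528400 value steps per library if a step is a read. Fold changes are on log2 of the value plus 1, fitted with limma over 11484 genes, and an adjusted p under 0.05 counts as a change. On the second principal component (11.1% of the variance), ruxolitinib replicate 2 at -19.7 and combination replicate 3 at -17.3 stood apart from their groups, and values without both of them are given where a call on the 10 genes changes. Markers of granulocyte-monocyte progenitors (7 of 7), neutrophils (6 of 7) and mast cells or basophils (4 of 4) had a mean of at least 10. The mast cell gene Cpa3 was among the abundant ones, with a mean of 12841 after the combination and 10656 after DMSO. None of the 4 B cell and 5 T and NK cell markers did, and Ms4a1, Pax5, Cd4 and Ncr1 were at 0 throughout.

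Before their values, 2 stretches of sequence are shown because they set how Csf2rb and Csf2rb2 can be read. These neighbouring genes encode the beta chain shared by the receptors for GM-CSF, IL-3 and IL-5 (Csf2rb) and, in the mouse, a second beta chain that serves IL-3 alone (Csf2rb2). Csf2rb lies on chromosome 15 of GRCm38 at 78325752 to 78353847, plus strand, and Csf2rb2 at 78282507 to 78305721, minus strand. Their longest transcripts in GENCODE vM21 were 95.1% identical over 3108 aligned bases. The longest stretch that both share without a mismatch ran over 242 coding bases, in exon 15 of Csf2rb (chr15:78348577-78348818) and exon 14 of Csf2rb2 (chr15:78284630-78284871).
Csf2rb and Csf2rb2: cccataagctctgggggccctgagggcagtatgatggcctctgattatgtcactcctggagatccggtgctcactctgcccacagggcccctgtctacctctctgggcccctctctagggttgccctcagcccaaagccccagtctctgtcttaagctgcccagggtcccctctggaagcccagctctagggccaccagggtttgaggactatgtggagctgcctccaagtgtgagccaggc
The coding stretch of 60 bases in which they differed most held 13 mismatches, printed in capitals. It lies in exon 5 of Csf2rb (chr15:78338893-78338952) and exon 4 of Csf2rb2 (chr15:78294379-78294438).
Csf2rb: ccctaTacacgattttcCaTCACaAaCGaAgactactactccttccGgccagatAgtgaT
Csf2rb2: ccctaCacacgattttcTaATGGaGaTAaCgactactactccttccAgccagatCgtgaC
Of the distinct 50-base windows of all annotated Csf2rb transcripts 12.3% also occurred in those of Csf2rb2. Of the windows of Csf2rb2 transcripts 18.4% occurred in Csf2rb. For 100-base windows the shares were 4.63% of Csf2rb and 6.82% of Csf2rb2. Read length and the handling of reads that match both genes are not given in the sources used here, so the split of reads between the pair is uncertain.

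Promoter windows are shown for the genes whose values the account turns on: Il6st and Il6ra, which moved most, Csf2rb2, and Csf3r. Each runs from 250 bases before to 50 bases after the start of the gene in RefSeq (GRCm38.p6), 5′ to 3′ on the gene's own strand, and 9 of the 10 genes, all but Csf2rb, had a window. Capitals mark matches on either strand to 4 motifs. These were TTCNNNGAA (bound by STAT factors), TTGCNNAA (C/EBP factors), AAATCA (the core of sites for GFI1, a repressor that recruits LSD1) and GAGGAA (PU.1, a myeloid transcription factor).
Il6st, chr13:112463820-112464119, plus strand: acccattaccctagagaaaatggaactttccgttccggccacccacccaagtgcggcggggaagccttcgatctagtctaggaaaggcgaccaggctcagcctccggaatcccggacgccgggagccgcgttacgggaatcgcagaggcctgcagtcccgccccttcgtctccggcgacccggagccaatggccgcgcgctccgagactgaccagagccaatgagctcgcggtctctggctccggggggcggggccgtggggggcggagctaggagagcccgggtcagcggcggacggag
Il6ra, chr3:89913147-89913446, minus strand: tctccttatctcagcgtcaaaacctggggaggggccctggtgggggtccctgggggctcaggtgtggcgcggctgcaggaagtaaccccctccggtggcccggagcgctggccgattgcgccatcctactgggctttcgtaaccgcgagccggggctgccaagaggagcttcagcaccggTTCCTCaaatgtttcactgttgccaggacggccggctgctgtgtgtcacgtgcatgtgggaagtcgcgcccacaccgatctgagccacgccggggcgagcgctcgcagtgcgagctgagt
Csf2rb2, chr15:78305672-78305971, minus strand: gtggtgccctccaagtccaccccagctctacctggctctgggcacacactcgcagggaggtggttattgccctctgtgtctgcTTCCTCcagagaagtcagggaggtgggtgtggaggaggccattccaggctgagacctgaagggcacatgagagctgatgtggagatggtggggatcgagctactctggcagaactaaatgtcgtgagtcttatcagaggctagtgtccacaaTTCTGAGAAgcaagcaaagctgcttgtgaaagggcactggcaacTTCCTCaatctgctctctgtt
Csf3r, chr4:126024409-126024708, plus strand: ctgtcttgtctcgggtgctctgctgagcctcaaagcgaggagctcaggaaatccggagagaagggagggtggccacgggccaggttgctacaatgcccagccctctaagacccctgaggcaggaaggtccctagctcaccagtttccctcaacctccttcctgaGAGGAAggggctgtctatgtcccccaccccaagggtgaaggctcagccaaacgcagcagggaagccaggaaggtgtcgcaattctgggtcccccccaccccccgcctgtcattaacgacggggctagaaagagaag
The Il6st window held none of these letters. The Il6ra and Csf3r windows each held 1 match to the PU.1 motif. The Csf2rb2 window held 2 of these and 1 STAT match that began at base 236 of the window, just before the start of the gene. Over the 9 windows, the STAT motif was found in 2 (Csf2rb2 and Ifnar1), against 8.3% of all 32851 mouse promoter windows. The C/EBP motif was found in 1 (Il3ra), against 10.8% of all windows, and the GFI1 core in 0, against 14% of all. The PU.1 motif was found in 5 (Csf2ra, Csf2rb2, Csf3r, Ifnar1 and Il6ra), against 28.3% of all. A match says that the letters are there, not that the factor binds.

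The 10 genes differed widely in level. Per kb of exon, averaged over the 12 libraries, Csf2rb2 had 5104 and Csf2rb 4655 normalised read counts, ranks 28 and 31 of 11053 genes with a length. Il4ra followed with 805.4 per kb (rank 404) and Csf3r with 477.4 per kb (rank 854). Ifngr1 had 247.5, Il3ra 135.1, Csf2ra 108.6 and Ifnar1 108.3 per kb, all above the median gene at 73.8. Il6st, at 74.7 per kb, lay at that median, and Il6ra, at 15.3 per kb (rank 9167), was the lowest of the 10. The beta chains thus stood far above the ligand-specific chains Csf2ra and Il3ra in every library.

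**Figure D1:**
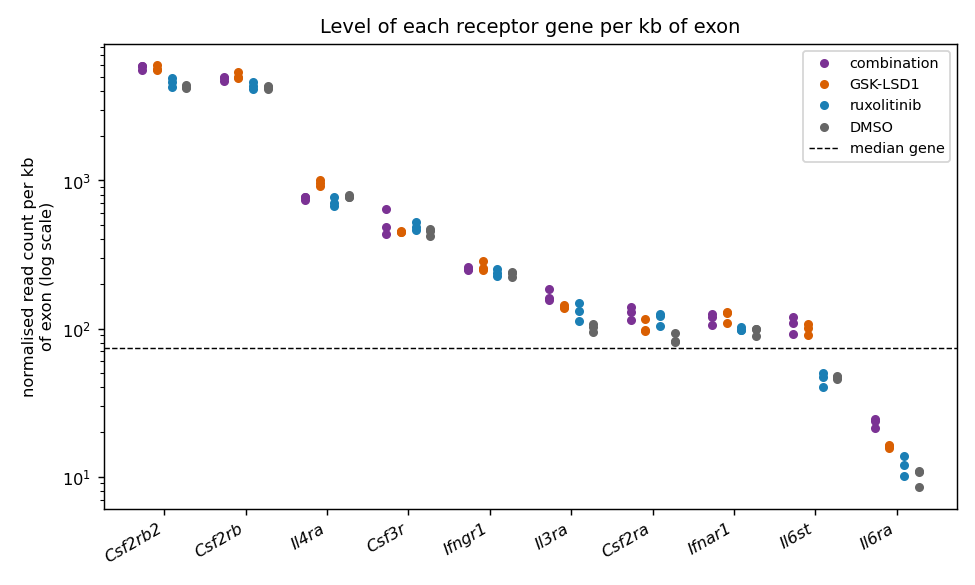
Normalised read count per kb of exon (log axis) of each of the 10 receptor genes in each library, ordered by mean level and coloured by treatment, with the median of 11053 genes as a dashed line. Csf2rb2 (mean 5104 per kb) and Csf2rb (4655 per kb) sit at the top, and Il6ra lies below the median gene in all 12 libraries.

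Across the comparisons, most of these receptors were higher after GSK-LSD1 and after the combination than after DMSO. After the combination 7 of the 10 rose against DMSO, where 42.3% of all tested genes changed (20.5% upward, 21.8% downward). After GSK-LSD1 8 of the 10 rose, where 32.5% of all genes changed (17% upward, 15.5% downward). After ruxolitinib alone 2 of the 10 rose, where 1.63% of all genes changed (1% upward, 0.627% downward). None of the 10 fell against DMSO. The libraries of treatment and DMSO did not overlap for 8 of the 10 after the combination (51.6% of all genes), 9 after GSK-LSD1 (50.9%) and 2 after ruxolitinib (23.7%). The median log2 fold change was 0.36 over the 10 and -0.01 over all genes for the combination, 0.32 and -0.00 for GSK-LSD1, and 0.08 and -0.00 for ruxolitinib. These 3 comparisons share the same DMSO libraries. A difference among the 4 treatments was called for 8 of the 10 by the F-test, as for 42.8% of all genes, and not for Csf3r (adjusted p = 0.231) or Ifngr1 (adjusted p = 0.127).

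**Figure D2:**
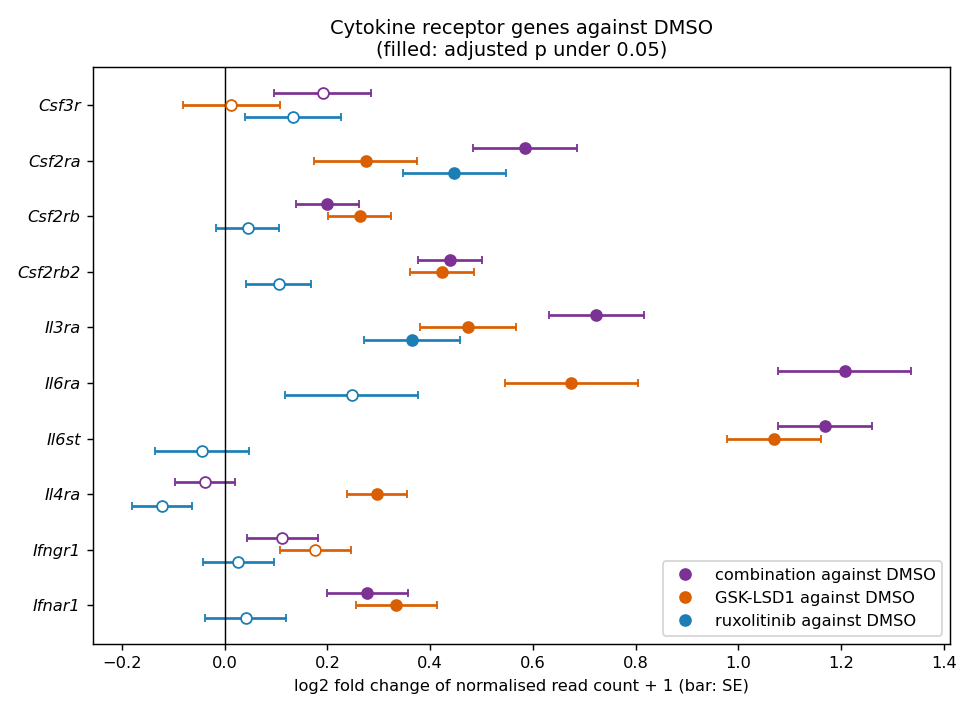
Log2 fold change against DMSO of each receptor gene after the combination, GSK-LSD1 and ruxolitinib, with bars of 1 SE and filled points for an adjusted p under 0.05. Il6st and Il6ra lie farthest to the right, near 1.2 after the combination, and Csf3r has no filled point.

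Csf3r itself did not change in any comparison. Csf3r (chromosome 4, 126024550 to 126044440, plus strand) had 1559, 1749 and 2300.3 normalised read counts after the combination and 1618, 1658 and 1616 after GSK-LSD1. It had 1674, 1899.7 and 1748 after ruxolitinib, against 1645, 1697 and 1511 after DMSO. Combination replicate 3 was the highest of the 12 libraries, while the other two combination libraries lay among the rest. The group means were 1869 ± 385 for the combination, 1631 ± 23.8 for GSK-LSD1, 1774 ± 115 for ruxolitinib and 1618 ± 96.0 for DMSO (SD, n = 3). In that order of levels, combination, ruxolitinib, GSK-LSD1 and DMSO, no neighbouring pair differed by the test, although the ruxolitinib libraries lay above those of GSK-LSD1 without overlap (GSK-LSD1 against ruxolitinib -0.12, adjusted p = 0.372). Against DMSO, the log2 fold change was 0.01 after GSK-LSD1 (95% interval -0.18 to 0.21, adjusted p = 0.932) and 0.13 after ruxolitinib (-0.06 to 0.33, adjusted p = 0.482). After the combination it was 0.19 ± 0.09 SE (interval -0.00 to 0.39, adjusted p = 0.108). This last value rested on single libraries. Without combination replicate 3 it was 0.03 (adjusted p = 0.740), without combination replicate 1 it was 0.31 and passed the test (adjusted p = 0.00836), and under quantile normalisation it was 0.25 (adjusted p = 0.0336). As the retroviral copy may add reads, these values do not describe the cells' own gene alone.

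**Figure D3:**
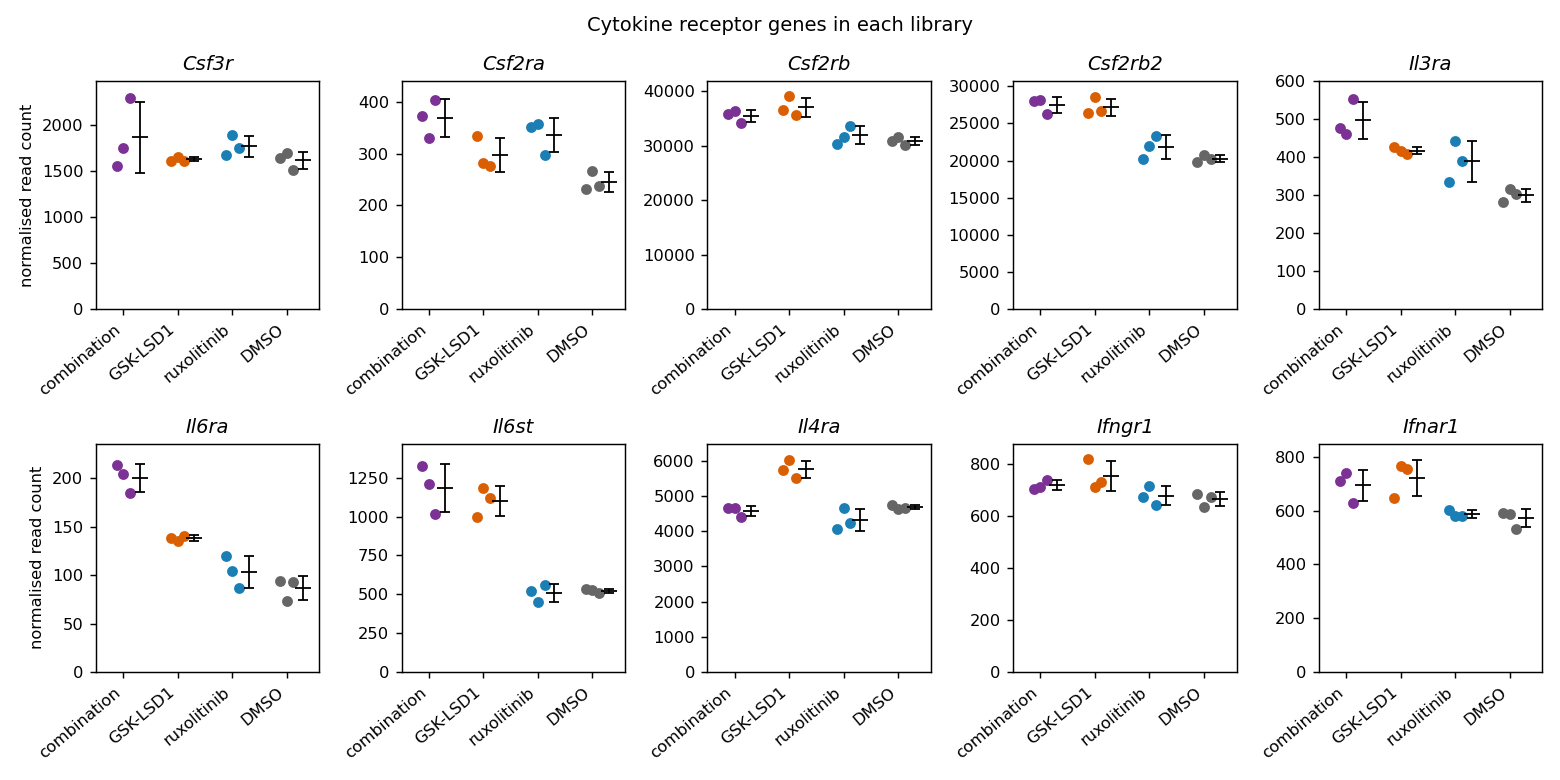
Normalised read count of each receptor gene in each library (points), with the mean and SD of the 3 libraries of a treatment beside them. Il6st separates into libraries with GSK-LSD1 (1017 to 1328) and without it (448.0 to 557.3), and Il4ra is highest after GSK-LSD1 alone.

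Il6st and Il6ra, the genes of the IL-6 receptor, rose most. Il6ra encodes the chain that binds IL-6, and Il6st encodes gp130, the signalling chain that IL-6 shares with IL-11, LIF and oncostatin M. Il6st (chromosome 13, 112464070 to 112510086, plus strand) had 1328, 1207 and 1017 normalised read counts after the combination and 998.1, 1184 and 1122 after GSK-LSD1. It had 522.3, 448.0 and 557.3 after ruxolitinib, against 533.3, 526.1 and 510.0 after DMSO. All 6 libraries with GSK-LSD1 lay above all 6 without it. Against DMSO, Il6st rose 2.25-fold after the combination (log2 fold change 1.17 ± 0.09 SE, adjusted p = 2.08e-09) and 2.10-fold after GSK-LSD1 (1.07 ± 0.09, adjusted p = 1.27e-08). After ruxolitinib its log2 fold change was -0.04 (95% interval -0.23 to 0.14, adjusted p = 0.840). The combination and GSK-LSD1 overlapped, with a difference of 0.10 (interval -0.09 to 0.29, adjusted p = 0.709).

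Il6ra followed another order. Il6ra (chromosome 3, 89864059 to 89913196, minus strand) had 213.2, 204.2 and 185.0 normalised read counts after the combination and 138.9, 135.4 and 140.6 after GSK-LSD1. It had 119.4, 103.8 and 87.0 after ruxolitinib, against 94.3, 73.0 and 93.1 after DMSO. The combination libraries were the highest and the GSK-LSD1 libraries came next with no overlap, while those of ruxolitinib and DMSO overlapped. Against DMSO, Il6ra rose 2.31-fold after the combination (log2 fold change 1.21 ± 0.13 SE, adjusted p = 2.40e-07) and 1.60-fold after GSK-LSD1 (0.67 ± 0.13, adjusted p = 0.000429). After ruxolitinib the value was 0.25 (interval -0.02 to 0.52, adjusted p = 0.334). The combination exceeded GSK-LSD1 by 0.53 ± 0.13 (adjusted p = 0.0396), a call made for 1.4% of all genes in that comparison. This call was lost when combination replicate 1 (adjusted p = 0.132), combination replicate 2 (0.115) or GSK-LSD1 replicate 1, 2 or 3 (0.116, 0.176 and 0.116) was left out, and with no filter on low values (0.0841). A predicted gene on the other strand, Gm42809, overlaps Il6ra, and the strandedness of the libraries is not given in the sources used here.

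Sums of neutrophil and of monocyte markers were also higher with GSK-LSD1, though not every marker in them. The summed level of the 7 neutrophil markers in the table was 16614 to 18384 after the combination and 10632 to 12202 after GSK-LSD1, against 5942 to 7413 after ruxolitinib and 5788 to 7063 after DMSO. Camp, one of them, had a mean under 10. The sum of the 5 monocyte and macrophage markers with a mean of at least 10 (Csf1r, Cx3cr1, Ccr2, Ctss and Adgre1) was 716 to 800 after the combination and 715 to 776 after GSK-LSD1, against 329 to 381 after ruxolitinib and 379 to 400.0 after DMSO, with no overlap between libraries with and without GSK-LSD1. The erythroid sum of 5 markers was 98 to 181 after the combination and 113 to 127 after GSK-LSD1, against 214 to 240 after ruxolitinib and 165 to 229 after DMSO, with Hba-a1 and Hbb-bs at 0. The sum of the 3 megakaryocyte markers overlapped between libraries with and without GSK-LSD1. It was 1965 to 2167 after the combination, 1853 to 2069 after GSK-LSD1 and 2089 to 2363 after ruxolitinib, against 1966 to 2079 after DMSO. The part of these cells in the rise of the receptors was not tested. In bulk RNA, more cells of a kind and more RNA per cell cannot be told apart.

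The chains of the GM-CSF and IL-3 receptors were higher after every treatment that held GSK-LSD1, and their ligand-specific chains were also higher after ruxolitinib. Csf2ra encodes the alpha chain that binds GM-CSF, and Il3ra the alpha chain that binds IL-3. Csf2ra (chromosome 19, 61223957 to 61228429, minus strand) had 372.9, 330.5 and 403.8 normalised read counts after the combination and 334.7, 282.7 and 275.2 after GSK-LSD1. It had 351.2, 357.6 and 297.4 after ruxolitinib, against 231.4, 267.1 and 237.7 after DMSO. All 9 treated libraries lay above the DMSO libraries, and the 3 treatments overlapped among themselves. Against DMSO, the log2 fold change of Csf2ra was 0.58 ± 0.10 SE after the combination (adjusted p = 8.37e-05), 0.27 ± 0.10 after GSK-LSD1 (adjusted p = 0.0416) and 0.45 ± 0.10 after ruxolitinib (adjusted p = 0.0262). The GSK-LSD1 call was lost without GSK-LSD1 replicate 1 (0.19, adjusted p = 0.211), GSK-LSD1 replicate 2 (adjusted p = 0.0585), DMSO replicate 1 (0.147) or DMSO replicate 3 (0.12), with no filter on low values (0.0653) and under quantile normalisation (0.0592). The ruxolitinib call was lost without ruxolitinib replicate 1 (adjusted p = 0.0732), ruxolitinib replicate 2 (0.112), DMSO replicate 1 (0.121) or DMSO replicate 3 (0.132), and with no filter (0.0549).

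Il3ra was likewise higher after all 3 treatments than after DMSO. Il3ra (chromosome 14, 14346275 to 14356011, plus strand, overlapped on the other strand by the predicted gene Gm48860) had 477.1, 461.7 and 552.9 normalised read counts after the combination and 426.6, 416.0 and 407.9 after GSK-LSD1. It had 335.3, 441.8 and 389.3 after ruxolitinib, against 282.0, 316.1 and 302.0 after DMSO. The combination libraries were the highest, those of GSK-LSD1 and ruxolitinib overlapped, and the DMSO libraries were the lowest. Against DMSO, Il3ra rose by 0.72 ± 0.09 SE on the log2 scale after the combination (adjusted p = 2.70e-06), 0.47 ± 0.09 after GSK-LSD1 (adjusted p = 0.000543) and 0.37 ± 0.09 after ruxolitinib (adjusted p = 0.0486). The combination also exceeded ruxolitinib alone, by 0.36 (adjusted p = 0.00563). The ruxolitinib call held without ruxolitinib replicate 1 and without combination replicate 3, and was lost when any other single library was left out, with adjusted p-values up to 0.226 and, without ruxolitinib replicate 2, a log2 fold change of 0.27. It was also lost with no filter (adjusted p = 0.0879), under quantile normalisation (0.0630), with only the groups compared (0.0890) and without both libraries that stood apart (0.0641).

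Other markers and base composition also moved with the ruxolitinib comparison. The sum of the 7 progenitor markers was 16855 to 17953 after the combination, 10230 to 10545 after GSK-LSD1 and 12936 to 18068 after ruxolitinib, against 10119 to 10682 after DMSO. Its members had different orders of means, given here with no test. Mpo had 12307 after the combination, 7201 after GSK-LSD1 and 10321 after ruxolitinib, against 6565 after DMSO. Prtn3 had 2163 after the combination, 1264 after GSK-LSD1 and 3179 after ruxolitinib, against 2097 after DMSO, and Cd34 had 1323 after the combination, 1020.5 after GSK-LSD1 and 312.7 after ruxolitinib, against 263.5 after DMSO. Ms4a3 had 211 after the combination, 134 after GSK-LSD1 and 452 after ruxolitinib, against 339 after DMSO. Elane had 153 after the combination, 77.5 after GSK-LSD1 and 259 after ruxolitinib, against 138 after DMSO. Ctsg had 1016 after the combination, 605 after GSK-LSD1 and 1398 after ruxolitinib, against 975 after DMSO. Kit had 52.2 after the combination, 44.2 after GSK-LSD1 and 33.8 after ruxolitinib, against 19.2 after DMSO. The sum of the 4 mast cell and basophil markers was 17077 to 19847 after the combination, 18356 to 19903 after GSK-LSD1 and 18658 to 19982 after ruxolitinib, against 15720 to 17563 after DMSO. Its members also differed, again with no test. Cpa3 had 12841 after the combination, 12689 after GSK-LSD1 and 11989 after ruxolitinib, against 10656 after DMSO, and Mcpt8 had 2027, 2316 and 1752 against 1702. Fcer1a had 3630 after the combination, 3761 after GSK-LSD1 and 4956 after ruxolitinib, against 4073 after DMSO, and Ms4a2 had 396, 348 and 510 against 378. The part of these cells in the rise of Csf2ra and Il3ra was not tested. Over 11053 genes, the fold change after ruxolitinib followed the GC content of the transcript with a Spearman rho of 0.415 across genes, which are not independent replicates. Il3ra (60.7% GC) and Csf2ra (57.8%) had the highest GC content of the 10. With GC content corrected, the log2 fold change after ruxolitinib was 0.35 for Csf2ra (adjusted p = 0.0359) and 0.24 for Il3ra (adjusted p = 0.0661).

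The beta chains, the most abundant of the 10, rose after GSK-LSD1 and after the combination. Csf2rb had 35836, 36467 and 34283 normalised read counts after the combination and 36528, 39088 and 35754 after GSK-LSD1. It had 30418, 31687 and 33682 after ruxolitinib, against 30957, 31690.0 and 30137 after DMSO. All libraries with GSK-LSD1 lay above those without it, while ruxolitinib and DMSO overlapped. Against DMSO, Csf2rb rose by 0.20 ± 0.06 SE on the log2 scale after the combination (adjusted p = 0.0118) and 0.26 ± 0.06 after GSK-LSD1 (adjusted p = 0.00233). The combination call was lost without DMSO replicate 3 (adjusted p = 0.0562), with no filter (0.0609) and under quantile normalisation (0.11, adjusted p = 0.164). The GSK-LSD1 call was lost under quantile normalisation (0.14, adjusted p = 0.0976).

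Csf2rb2 had larger log2 fold changes than Csf2rb in both comparisons. Csf2rb2 had 27971, 28199 and 26284 normalised read counts after the combination and 26372, 28522 and 26652 after GSK-LSD1. It had 20161, 22015 and 23336 after ruxolitinib, against 19843, 20783 and 20188 after DMSO. Libraries with GSK-LSD1 again lay above all others. The log2 fold change against DMSO was 0.44 ± 0.06 SE after the combination (adjusted p = 9.95e-06) and 0.42 ± 0.06 after GSK-LSD1 (adjusted p = 2.84e-05). After ruxolitinib the values were 0.04 for Csf2rb (interval -0.08 to 0.17, adjusted p = 0.743) and 0.11 for Csf2rb2 (-0.03 to 0.24, adjusted p = 0.399).

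The ratio of Csf2rb2 to Csf2rb differed between treatments. It was 0.774 ± 0.007 after the combination, 0.732 ± 0.012 after GSK-LSD1 and 0.684 ± 0.018 after ruxolitinib, against 0.656 ± 0.015 after DMSO (SD, n = 3). The libraries of the combination, of GSK-LSD1 and of the groups without GSK-LSD1 did not overlap, and those of ruxolitinib and DMSO did. The ratio is a description, as reads shared by both genes may have been counted for either. With the pair summed as 1 gene, an alternative added after the data were seen, the log2 fold change was 0.30 after the combination (adjusted p = 0.00091), 0.33 after GSK-LSD1 (adjusted p = 0.000617) and 0.07 after ruxolitinib (adjusted p = 0.616).

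**Figure D4:**
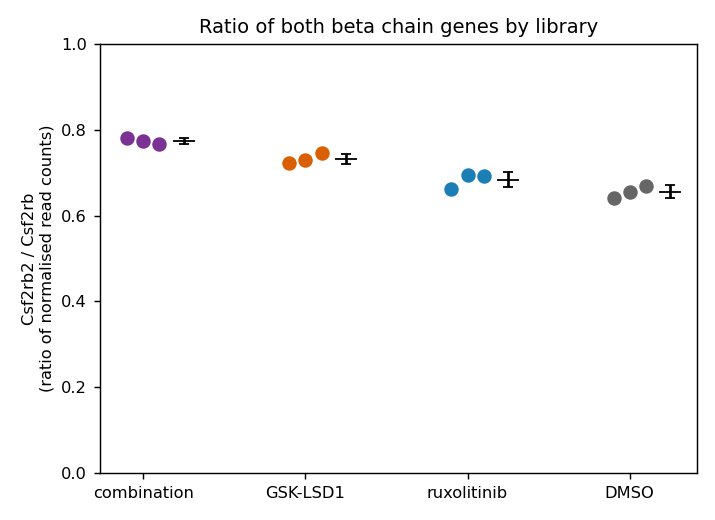
Ratio of the normalised read count of Csf2rb2 to that of Csf2rb in each library, with the mean and SD per treatment. The combination (0.767 to 0.781) lies highest, followed by GSK-LSD1 (0.722 to 0.745), and ruxolitinib (0.663 to 0.695) overlaps DMSO (0.641 to 0.670).

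Il4ra was the only gene of the 10 that passed the test as lower after the combination than after GSK-LSD1. It encodes the alpha chain of the IL-4 receptor, which also serves IL-13. Il4ra (chromosome 7, 125552120 to 125579474, plus strand, overlapped on the other strand by the predicted gene Gm44876) had 4651, 4648 and 4405 normalised read counts after the combination and 5743, 6021 and 5523 after GSK-LSD1. It had 4058, 4669.7 and 4223 after ruxolitinib, against 4756, 4639 and 4671 after DMSO. The 3 GSK-LSD1 libraries lay above the other 9, which overlapped. Il4ra rose 1.23-fold after GSK-LSD1 against DMSO (log2 fold change 0.30 ± 0.06 SE, adjusted p = 0.000543) and was lower after the combination than after GSK-LSD1 by a log2 difference of -0.33 ± 0.06 (adjusted p = 0.00212). The combination against DMSO gave -0.04 (interval -0.16 to 0.08, adjusted p = 0.632), and ruxolitinib against DMSO gave -0.12 (interval -0.24 to -0.00, adjusted p = 0.284). This ruxolitinib value passed the test with GC content corrected (-0.20, adjusted p = 0.0396) and without both libraries that stood apart (-0.18, adjusted p = 0.0250).

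Of the interferon receptor genes, Ifnar1 rose and Ifngr1 did not pass. Ifnar1 encodes a chain of the type I interferon receptor, and Ifngr1 the chain that binds interferon-gamma. Ifnar1 (chromosome 16, 91485238 to 91507441, plus strand) had 711.1, 740.9 and 628.5 normalised read counts after the combination and 645.4, 766.4 and 752.9 after GSK-LSD1. It had 603.9, 578.5 and 579.1 after ruxolitinib, against 592.9, 588.1 and 532.7 after DMSO. Libraries with GSK-LSD1 lay above those without it. The log2 fold change against DMSO was 0.28 ± 0.08 SE after the combination (adjusted p = 0.00712), 0.33 ± 0.08 after GSK-LSD1 (adjusted p = 0.00253) and 0.04 after ruxolitinib (interval -0.12 to 0.20, adjusted p = 0.826). Ifngr1 (chromosome 10, 19591949 to 19610229, plus strand) had 705.2, 714.2 and 740.9 normalised read counts after the combination and 820.2, 711.6 and 730.0 after GSK-LSD1. It had 674.5, 717.2 and 644.3 after ruxolitinib, against 686.2, 637.2 and 675.3 after DMSO. Ifngr1 values with GSK-LSD1 lay above DMSO and overlapped ruxolitinib, with log2 fold changes against DMSO of 0.11 after the combination (interval -0.03 to 0.26, adjusted p = 0.199) and 0.18 after GSK-LSD1 (0.03 to 0.32, adjusted p = 0.0555). The GSK-LSD1 value passed without GSK-LSD1 replicate 2 (0.22, adjusted p = 0.0496), combination replicate 3 (adjusted p = 0.0384), ruxolitinib replicate 2 (0.0397) or both libraries that stood apart (0.0160). It also passed with only the groups compared (0.0159), with GC content corrected (0.0273) and under quantile normalisation (0.0369).

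When ruxolitinib was in both groups, adding GSK-LSD1 raised the IL-6 receptor genes most. Against ruxolitinib alone, the combination had 5 of the 10 higher and 0 lower, where 31.6% of all genes changed (16% upward), and 6 had no overlap between libraries, against 38.5% of all genes. The 5 were Il6st (1.21 ± 0.09 SE, adjusted p = 1.57e-09), Il6ra (0.96, adjusted p = 7.85e-06), Il3ra (0.36), Csf2rb2 (0.33, adjusted p = 0.000338) and Ifnar1 (0.24, adjusted p = 0.0256). Csf2rb had 0.15 (interval 0.03 to 0.28, adjusted p = 0.0580) and passed under TMM scaling (0.17, adjusted p = 0.0408), with GC content corrected (0.0254), and without combination replicate 3 (0.0290), ruxolitinib replicate 3 (0.0281) or both libraries that stood apart (0.0134). Il4ra had 0.08 (interval -0.04 to 0.20, adjusted p = 0.291) and passed without both of those libraries (0.17, adjusted p = 0.00996). The Ifnar1 call was lost without combination replicate 1 (adjusted p = 0.0797), combination replicate 2 (0.121), ruxolitinib replicate 2 (0.0522) or ruxolitinib replicate 3 (0.0612). It was also lost with only the groups compared (0.0589). When GSK-LSD1 was in both groups, adding ruxolitinib changed 2 of the 10, Il6ra upward (1.05% of all genes) and Il4ra downward (0.348%), and 3 had no overlap between libraries, against 18.1% of all genes. In GSK-LSD1 against ruxolitinib, 6 of the 10 were higher, where 25.4% of all genes changed (13.6% upward), and 7 had no overlap between libraries, against 39.7% of all genes. Il6st was higher by 1.11, Il6ra by 0.43, Il4ra by 0.42, Csf2rb2 by 0.32, Ifnar1 by 0.29 and Csf2rb by 0.22 on the log2 scale. In that comparison, leaving out GSK-LSD1 replicate 2 ended the calls of Csf2rb (adjusted p = 0.0868) and Ifnar1 (0.0605), GSK-LSD1 replicate 3 those of Il6ra (0.0622) and Ifnar1 (0.0527), and ruxolitinib replicate 3 that of Il6ra (0.0948). The Csf2rb call there was also lost with no filter on low values (adjusted p = 0.0626) and under quantile normalisation (0.107). Ifngr1 passed there without both libraries that stood apart (0.19, adjusted p = 0.0295), and Il3ra with GC content corrected (0.19, adjusted p = 0.0442).

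The interaction asked whether the combination departed, in log2 terms, from both drugs' own effects added up. By limma, 0 of the 10 genes passed, with adjusted p-values of 0.998 or above, and 1 had an unadjusted p under 0.05. Over all genes 1 passed (0.00871%) and 534 had an unadjusted p under 0.05. The gene with the low unadjusted p was Il4ra (-0.21 ± 0.08 SE, 95% interval -0.38 to -0.04, adjusted p = 0.998), and Il6ra had the largest positive value (0.29 ± 0.18, 95% interval -0.09 to 0.67).

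Most ligand genes of these receptors were low or at 0. In a list of 12 ligand genes, 8 had a mean under 10, among them Csf3, Csf2, Il5 and Il4, and Il3, Ifng and Ifnb1 were at 0 in all libraries. The 4 tested ligands were Il6, Osm (oncostatin M), Lif and Il13. Of these, Il6 rose after the combination (20.5% of all genes rose), and Il6, Il13 and Osm rose after GSK-LSD1 (17%). Osm fell after ruxolitinib (0.627% of all genes fell). Il6 had 780.8 ± 196 normalised read counts after the combination and 910.4 ± 80.8 after GSK-LSD1, against 526.7 ± 30.9 after ruxolitinib and 563.5 ± 93.7 after DMSO. It rose by 0.70 ± 0.13 SE after GSK-LSD1 against DMSO (adjusted p = 0.000428) and by 0.45 ± 0.13 after the combination (adjusted p = 0.0104), so the gene of the ligand and both chains of its receptor were higher in both comparisons. The combination value of Il6 no longer passed without combination replicate 1 (adjusted p = 0.0796), combination replicate 2 (0.0586) or DMSO replicate 1 (0.0779).

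Osm and Il13 shared with Il4ra a lower level after the combination than after GSK-LSD1. Osm had 785.5 ± 25 normalised read counts after the combination, 996.2 ± 18.1 after GSK-LSD1 and 663.8 ± 44.1 after ruxolitinib, against 823.9 ± 39.9 after DMSO. Against DMSO it rose by 0.27 ± 0.06 SE after GSK-LSD1 (adjusted p = 0.00262), fell by 0.31 ± 0.06 after ruxolitinib (adjusted p = 0.0165) and had -0.07 after the combination (adjusted p = 0.418). The ruxolitinib call was lost without ruxolitinib replicate 1 (adjusted p = 0.0525), ruxolitinib replicate 2 (0.0661), DMSO replicate 2 (0.0940) or DMSO replicate 3 (0.0837). The combination lay below GSK-LSD1 by -0.34 ± 0.06 for Osm (adjusted p = 0.00498). Il13 was low, at 17.2 ± 5.9 after the combination and 38.6 ± 1.5 after GSK-LSD1, a difference of -1.18 ± 0.25 (adjusted p = 0.0151), against 23.1 ± 3.6 after ruxolitinib and 21.2 ± 4.0 after DMSO. The rise of Il13 after GSK-LSD1 against DMSO was 0.85 ± 0.25 (adjusted p = 0.0140), lost without DMSO replicate 1 (0.70, adjusted p = 0.0718) and under quantile normalisation (0.59, adjusted p = 0.0865). The call of Il13 for the combination against GSK-LSD1 was lost without combination replicate 3 (-0.90, adjusted p = 0.0882) or any 1 of the GSK-LSD1 libraries (adjusted p = 0.0577 to 0.0852). It was also lost with no filter on low values (adjusted p = 0.0659) and without both libraries that stood apart (0.0587).

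Several partner chains of these receptors rose after the treatments with GSK-LSD1. In a list of 9 further chains 6 were tested. Of these, 3 rose after GSK-LSD1 (17% of all genes rose) and the same 3 after the combination (20.5%): Ifngr2, Il2rg and Ifnar2. Ifngr2, the signalling partner of Ifngr1, had 671.5 ± 20.8 normalised read counts after the combination and 607.6 ± 5.6 after GSK-LSD1, against 282.2 ± 44.5 after ruxolitinib and 259.9 ± 22.3 after DMSO. Its log2 fold changes against DMSO were 1.37 ± 0.09 SE after the combination (adjusted p = 2.57e-10) and 1.23 ± 0.09 after GSK-LSD1 (adjusted p = 1.95e-09), above the values of all 10. Il2rg, the common gamma chain that pairs with Il4ra, rose by 0.85 after the combination (adjusted p = 2.73e-09) and by 0.80 after GSK-LSD1 (adjusted p = 1.08e-08). Ifnar2, the partner of Ifnar1, rose by 0.47 after the combination (adjusted p = 2.44e-06) and by 0.36 after GSK-LSD1 (adjusted p = 8.56e-05). Il13ra1, the other partner of Il4ra, had -0.37 after the combination (adjusted p = 0.0899, and -0.60, adjusted p = 0.00797, under quantile normalisation) and 0.03 after GSK-LSD1 (adjusted p = 0.907). It fell after ruxolitinib by 0.90 ± 0.17 (adjusted p = 0.00910), at 38.0 ± 8.0 against 70.9 ± 4.9 after DMSO. That fall no longer passed without ruxolitinib replicate 2 (-0.74, adjusted p = 0.0632) or DMSO replicate 1 (-0.85, adjusted p = 0.0546). Il5ra, Lifr and Osmr, which encode chains for IL-5, LIF and oncostatin M, had means under 10.

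**Figure D5:**
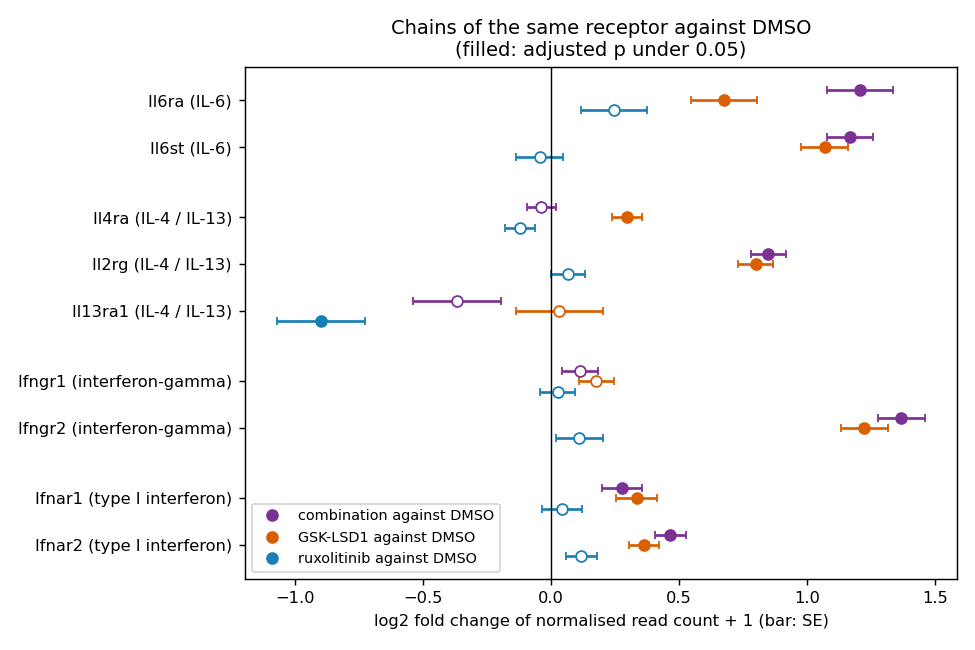
Log2 fold change against DMSO of chains that form the same receptor, after the combination, GSK-LSD1 and ruxolitinib, with bars of 1 SE and filled points for an adjusted p under 0.05. Ifngr2 lies at 1.37 after the combination and 1.23 after GSK-LSD1, and its partner Ifngr1 at 0.11 after the combination and 0.18 after GSK-LSD1.

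Downstream of the receptors, several JAK and STAT genes changed by small amounts. Of 11 JAK and STAT genes, 6 rose and 1 fell after the combination (20.5% of all genes rose and 21.8% fell), 4 rose and 1 fell after GSK-LSD1 (17% and 15.5%), and 0 passed by limma after ruxolitinib (1 with an unadjusted p under 0.05). Stat5b, which encodes a STAT factor used by most of these receptors, rose by 0.43 ± 0.05 SE after the combination (adjusted p = 2.20e-06) and 0.35 ± 0.05 after GSK-LSD1 (adjusted p = 4.42e-05). Tyk2, a JAK kinase of the interferon and IL-6 families of receptors, fell by 0.23 after the combination (adjusted p = 0.00361) and by 0.21 after GSK-LSD1 (adjusted p = 0.00826, and 0.0522 without DMSO replicate 2). The drug targets moved little: Kdm1a had -0.13 after the combination (adjusted p = 0.0741), -0.05 after GSK-LSD1 and -0.11 after ruxolitinib. The combination value of Kdm1a passed with GC content corrected (-0.14, adjusted p = 0.0220) and with GC correction and replicate block (0.0320). Jak2 had 0.03 after the combination, 0.08 after GSK-LSD1 and -0.13 after ruxolitinib with no call, and Jak1 had 0.18 after the combination (adjusted p = 0.0215), 0.14 after GSK-LSD1 and -0.05 after ruxolitinib. The Jak1 call was lost without combination replicate 1 (adjusted p = 0.0917), combination replicate 2 (0.0688), DMSO replicate 1 (0.0510) or DMSO replicate 2 (0.10). Jak1 after GSK-LSD1 passed with GC content corrected (adjusted p = 0.0163), with only the groups compared (0.0122) and with GC correction and replicate block (0.0249). It also passed without combination replicate 3 (0.0442) or both libraries that stood apart (0.0142).

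Of 16 genes of feedback on cytokine signals, 2 rose and 4 fell after the combination (42.3% of all genes changed), 3 rose and 2 fell after GSK-LSD1 (32.5%), and 0 passed by limma after ruxolitinib (2 with an unadjusted p under 0.05). Bcl6, a repressor that limits STAT targets, rose by 1.26 ± 0.15 SE after the combination (adjusted p = 8.45e-07) and 0.83 ± 0.15 after GSK-LSD1 (adjusted p = 0.000213). Pias3, an inhibitor of STAT3, rose by 0.71 after the combination (adjusted p = 5.19e-06) and by 0.61 after GSK-LSD1 (adjusted p = 5.88e-05). Pim3, a survival kinase of the PIM family, fell by 0.61 after the combination (adjusted p = 0.000124) and by 0.48 after GSK-LSD1 (adjusted p = 0.00189). Socs1, an inhibitor of JAK kinases, rose by 0.32 after GSK-LSD1 (adjusted p = 0.00820) and had 0.21 after the combination (adjusted p = 0.0649). The combination value of Socs1 passed under quantile normalisation (adjusted p = 0.0244), with only the groups compared (0.0490) and without combination replicate 1 (0.0209). It also passed without ruxolitinib replicate 1 (0.0401) or ruxolitinib replicate 2 (0.0392).

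Genes that varied most like Csf3r and Il6st over the 12 libraries were sought in 8428 genes whose mean reached 100. For Csf3r they were Ctdsp1, Prkab1 and Brd2, with Pearson r of 0.921, 0.916 and 0.900, and combination replicate 3, the highest Csf3r library, weighs on these values. For Il6st, the gene with the smallest F-test p of the 10, they were Atp8b4 (0.996), Gng2 (0.991) and Slc22a15 (0.990). The 12 libraries fall into those with and without GSK-LSD1 for Il6st, so its r describes that split. Atp8b4, a flippase gene, had means of 7183 after the combination and 7069 after GSK-LSD1, against 3947 after ruxolitinib and 4212 after DMSO.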

How the data were processed

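RNA was measured in 12 libraries, 3 for each of 4 treatments. The deposited signal is gene read counts that the authors normalised by a factor per library, with 1e-05 added to every value. Values of a library are whole multiples, within 0.01, of a step of 0.9865 to 1.027. Per the submitters' processing notes, STAR, DESeq2, mm10 and GRCm38 were used, and no versions or roles are given. Per the labels' protocols, RNA came from a micro column kit and BGI built the libraries. The annotation, counting and strandedness are not given in the sources used here.

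The constant was taken off, so that a value listed at it was read as 0. The values were not treated as counts, and no count test was run. Genes with a mean of at least 10 (11484) were fitted on log2(value + 1) with limma 3.58.1 in R 4.3.3, with a mean per treatment, a variance trend and 8 residual degrees of freedom. Within each comparison, Benjamini-Hochberg adjustment ran over every tested gene, and 0.05 was the threshold. The interaction is the combination minus both single effects. The table has 27 symbols turned into dates and 2 listed more than once, none of them described here. The procedure was tested on simulated data.

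The 10 genes and 6 lists (85 genes) were chosen with earlier results of these data known. Named were all 10 genes, the drug targets, the 4 genes of each list with the smallest F-test p, and the 3 genes most like Csf3r and Il6st. Markers were listed by cell type, and 1 marker is not reported here. Positions and exon lengths are from GENCODE vM21, and shared sequence was found by alignment of the longest transcripts (blastn 2.17.0). Promoter windows are from RefSeq. Alternatives changed 1 choice at a time, other than a GC correction joined with the replicate block: pseudocounts of 0.25 and 5, the low-value filter (none, or 50), scaling (TMM, written out in R, or quantile), a GC correction, the replicate number as a block, only the groups compared, and each library or both outlying libraries left out.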

Additional observations from a re-analysis of the deposited data

How the results depend on the processing

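Over up to 23 alternatives in each of 7 comparisons, with 3 values more for the beta chains summed, no called fold change of the 10 genes turned its direction. Of these values 51 no longer passed the test under an alternative and 22 passed under an alternative alone, while 1530 kept their side. The rises against DMSO of Il6st, Il6ra, Il3ra, Csf2rb2 and Ifnar1 after the combination and after GSK-LSD1, of Csf2ra after the combination and of Il4ra after GSK-LSD1 passed under every alternative tried. The ruxolitinib count of 2 genes was 0 with no filter on low values, 1 under quantile normalisation, 1 with only the groups compared, and 0 to 2 with single libraries left out. The count of 2 for the combination against GSK-LSD1 was 1 with no filter and 1 to 2 with single libraries left out. The causes were not tested. The same replicate numbers did not pair the libraries: deviations of same-numbered libraries correlated at -0.148 to 0.150 over 18 pairs, and 4 of 12 libraries correlated best with their own number. With the replicate number as a block, the ruxolitinib count was 1 (Il3ra lost, adjusted p = 0.0688), and Csf2ra after GSK-LSD1 no longer passed (adjusted p = 0.0553). Over all genes, ruxolitinib changed 187 (115 higher and 72 lower), 112 with the replicate block, 98 with no filter, 82 with only the groups compared, and 32 to 551 with single libraries left out. It changed 290 with GC content corrected (142 higher and 148 lower), and 317 without both outlying libraries. The combination against GSK-LSD1 changed 161 genes (121 higher and 40 lower), 286 with GC content corrected (180 and 106), 244 with GC correction and replicate block, 270 without both outlying libraries, and 83 to 226 with single libraries left out. The interaction count of 1 was 0 to 5 under the alternatives. With 3 libraries per treatment, single libraries decided the calls named above, and small differences could not be resolved.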

Other observations

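Receptors for other blood cell cytokines and growth factors were in part higher with GSK-LSD1. In a list of 22 such genes 17 were tested. After the combination 10 were higher and 1 (Il1rap) was lower than after DMSO (20.5% of all genes were higher and 21.8% lower), and after GSK-LSD1 9 were higher and 1 (Il1rap) was lower (17% and 15.5% of all genes). After ruxolitinib 0 were higher and 1 (Il2ra) was lower (1% and 0.627% of all genes). Il10ra, the ligand-binding chain of the IL-10 receptor, had 129.4 ± 15.2 normalised read counts after the combination and 122.6 ± 13.0 after GSK-LSD1, against 25.7 ± 4.3 after ruxolitinib and 27.5 ± 8.2 after DMSO. Its log2 fold changes against DMSO were 2.23 ± 0.19 SE after the combination (adjusted p = 7.13e-09) and 2.15 ± 0.19 after GSK-LSD1 (adjusted p = 1.88e-08). Il18r1, a chain of the IL-18 receptor, rose by 0.77 after the combination (adjusted p = 5.16e-09) and by 0.84 after GSK-LSD1 (adjusted p = 2.29e-09). Il2rb, a signalling chain of the IL-2 and IL-15 receptors, rose by 0.73 after the combination (adjusted p = 2.03e-05) and by 1.17 after GSK-LSD1 (adjusted p = 6.85e-08). Tgfbr2, a receptor for TGF-beta, rose by 0.47 after the combination (adjusted p = 1.39e-05) and by 0.50 after GSK-LSD1 (adjusted p = 1.19e-05).

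Genes that act next to the receptor were higher or did not pass. Of 15 adaptors, kinases and phosphatases 14 were tested. Of these, 6 rose after the combination (20.5% of all genes rose), 5 after GSK-LSD1 (17%) and 1 (Fes) after ruxolitinib (1%). None fell, where 21.8% of all genes fell after the combination, 15.5% after GSK-LSD1 and 0.627% after ruxolitinib. Ptpn6, which encodes the phosphatase SHP-1, had 1958 ± 69.7 normalised read counts after the combination, 1610 ± 47.5 after GSK-LSD1 and 1298 ± 54.3 after ruxolitinib, against 1160 ± 20.2 after DMSO. It rose by 0.75 ± 0.06 SE after the combination (adjusted p = 1.05e-09) and by 0.47 ± 0.06 after GSK-LSD1 (adjusted p = 1.83e-06), and the combination lay above GSK-LSD1 by 0.28 (adjusted p = 0.00794). That difference no longer passed without GSK-LSD1 replicate 1 (adjusted p = 0.0577) or GSK-LSD1 replicate 2 (0.0631). Fes, a kinase of myeloid cells, rose by 0.74 after the combination (adjusted p = 4.42e-09), by 0.46 after GSK-LSD1 (adjusted p = 5.96e-06) and by 0.29 after ruxolitinib (adjusted p = 0.0157), the last lost without ruxolitinib replicate 2 (adjusted p = 0.0691) or any 1 of the DMSO libraries (adjusted p = 0.0549 to 0.0764). Sh2b3, an adaptor that limits JAK signals, rose by 0.37 after the combination (adjusted p = 7.66e-05) and by 0.29 after GSK-LSD1 (adjusted p = 0.00129). Ptprc, the CD45 phosphatase, rose by 0.51 after the combination (adjusted p = 2.53e-05) and by 0.49 after GSK-LSD1 (adjusted p = 7.85e-05).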
